A study of Sus scrofa with 6 samples.

Results

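Oxidative phosphorylation subunits are the proteins of the 4 respiratory complexes and of ATP synthase, complex V, in the inner mitochondrial membrane. Complexes I and II pass electrons from NADH and succinate to ubiquinone, complex III passes them on to cytochrome c, and complex IV passes them to oxygen. Complexes I, III and IV pump protons, and complex V uses the proton gradient to make ATP. In the ovary the oocyte holds very many mitochondria, and steroid-making cells begin steroid synthesis inside them.

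The genes were taken from the array's platform annotation by symbol, as probe sets with 1 symbol that begins with NDUF, UQCR, ATP5 or COX followed by a digit from 4 to 8, or is SDHA, SDHB, SDHC, SDHD, CYC1 or CYCS. This gave 81 probe sets of 64 genes, out of 10069 probe sets with 1 symbol and 6765 genes in the table. Where a gene had several probe sets, the brightest one by its mean over all arrays was used. Complex I had 32 genes, complex II 4, complex III 2 (UQCR10 and UQCRB), complex IV 8 and complex V 13. NDUFA4, named for complex I but found in complex IV, was counted with complex IV. The 5 others were CYCS, the cytochrome c that carries electrons between complexes III and IV, the complex I assembly factors NDUFAF1, NDUFAF2 and NDUFAF3, and ATP5S, which is not a subunit. No symbol of a subunit encoded in mitochondrial DNA was matched, so every value here is that of a nuclear gene. By gene identifier all 64 were found in RefSeq, with 0 symbols changed.

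RNA came from ovarian follicles of prepubertal gilts, which are young female pigs, and follicles had been picked by their shape and size. By their titles, 2 arrays each were of primordial follicles, middle stage follicles and last stage follicles, 6 arrays in all. A separate description calls all 6 arrays primordial, so the stages rest on the titles. The titles call the 2 arrays of a stage biological replicates, and no source used here says whether these were separate animals or pools, so the spread behind each p-value is that between these arrays.

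Signals are linear and were scaled by the authors to 1 common trimmed mean. Across the probe sets tested, Pearson's r was 0.955 to 0.973 between arrays of the same stage and 0.721 to 0.882 between stages. Oocyte markers, 12 on the array, summed to 1387 to 2369 under the primordial label, 20234 to 22076 in middle stage follicles and 1798 to 1894 in last stage ones. DPPA5 and PADI6 were at or under 16 on both arrays labelled primordial. Leukocyte markers, 12 on the array, summed to 31956 to 37074, 3060 to 3949 and 3946 to 10136 in the same order, and granulosa markers, 13 on the array, to 69649 to 88833, 40664 to 45219 and 93962 to 98054. Theca markers, 6 on the array, summed to 6021 to 6390, 3390 to 4699 and 19793 to 22868, and endothelial markers, 7 on the array, to 1584 to 1838, 1357 to 1817 and 3209 to 3601, with KDR at or under 16 on both middle arrays. By the test given below, 5 of 6 theca and 4 of 6 endothelial markers tested were higher and 0 lower in last minus primordial. Of 10 oocyte markers tested 4 were higher and 0 lower there, of 10 granulosa markers 3 and 2, and of 10 leukocyte markers 0 and 10. These stand beside 17.2% higher and 15.8% lower of all genes tested. In middle minus primordial the oocyte counts were 9 and 1, the granulosa counts 1 and 6 and the leukocyte counts 0 and 10. The endothelial counts were 1 and 1 of 6 tested. Theca counts were 3 and 1 of 6 tested, with a median of 0.98, although the theca sum was lower in the middle arrays. Of all genes 22.9% were higher and 22.5% lower there. The marker sums moved with stage, and their part in the results below was not tested. In such bulk RNA fewer cells of a type and less RNA per cell cannot be told apart.

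Differences were tested with limma on log2(signal + 16) over the 14399 probe sets left after the 40% dimmest were removed. They are given in log2 units ± SE with n = 2 arrays a stage, and a gene is called at a Benjamini-Hochberg adjusted p under 0.05 over all probe sets tested. The number of arrays limits the precision. Of the 59 subunit genes 58 passed the filter. COX8H, a heart isoform in complex IV, did not, with signals of 30.2 and 54.7 (primordial), 8.8 and 12.6 (middle) and 39.6 and 14.5 (last).

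Relative to the arrays labelled primordial, most called subunits of complexes I to IV were higher under the deposited scaling with all 6 arrays, and those of ATP synthase went both ways. In last minus primordial 15 of 58 subunit genes were higher and 2 lower, or 25.9% and 3.45%, beside 17.2% and 15.8% of the 5432 genes tested at 1 probe set per gene. For middle minus primordial 15 were higher and 6 lower, or 25.9% and 10.3%, beside 22.9% and 22.5% of all genes. Between the later stages few genes passed, as 2 of 58 were higher in last minus middle and 0 lower, or 3.45% beside 8.8% higher and 7.23% lower among all genes. At an unadjusted p under 0.05 the limma counts were 28, 9 and 28 for middle minus primordial, last minus middle and last minus primordial, beside 53.4%, 29.2% and 44.2% of all genes. By limma's F-test over the 3 stages 24 of the 58 differed, beside 48.6% of all genes tested.

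Most of these differences were small, and the scaling between arrays moved them. The median of the 58 subunits was 0.23 in middle minus primordial, beside 0.06 over all genes tested. It was 0.15 in last minus middle, beside 0.02, and 0.39 in last minus primordial, beside 0.06. With every array centred on its own median log2 value, the median of all genes moved to -0.35 and that of the subunits to -0.18 in middle minus primordial, and 1 subunit was then higher and 15 lower, beside 11.8% higher and 36.7% lower of all genes. With quantile normalization 31 were higher and 4 lower, beside 20.3% and 24.3%. In last minus primordial the split was 7 higher and 5 lower with centring (all genes 10% and 22.5%) and 21 and 1 with quantile normalization (14.1% and 15.4%). For last minus middle it was 7 and 0 with centring (13.3% and 4.4%) and 1 and 3 with quantile normalization (9.61% and 7.4%). Centring shifts every gene of an array by 1 constant, so its change of these counts is not particular to the subunits, and complexes are compared below relative to all genes. No called subunit changed sign under any alternative, but of the 21 calls in middle minus primordial only those of COX7A1 and ATP5J held in all 15 alternative fits, of the 17 in last minus primordial 6 did, and of the 2 in last minus middle 0 did. Centring ended 14 of the 15 higher calls of middle minus primordial, all but COX7A1, and 8 of last minus primordial, those of ATP5G2, ATP5H, COX7A2, NDUFA7, NDUFA8, NDUFS5, NDUFV2 and SDHC. Quantile normalization ended the calls of ATP5A1, ATP5B, NDUFA5 and NDUFB9 in middle minus primordial, NDUFB1 in last minus middle and ATP5B in last minus primordial. A fit without the variance trend, limma's trend of variance with signal, left 9, 1 and 8 subunits called in middle minus primordial, last minus middle and last minus primordial. Of all genes 21.2% were then higher and 19.9% lower, 6.61% and 5.85%, and 15.1% and 13.5%. Single arrays moved both the counts and the medians. In middle minus primordial the subunit median was 0.17 without primordial replicate 1 and 0.27 without primordial replicate 2, beside 0.03 and 0.07 over all genes. It was 0.325 without middle replicate 1 and 0.08 without middle replicate 2, beside 0.12 and 0.01. Without middle replicate 2 more subunits were called lower than higher, as among all genes. In last minus primordial the median was 0.35, 0.40 and 0.27 without primordial replicate 1, primordial replicate 2 and last replicate 1, beside 0.04, 0.07 and 0.04. In last minus middle it was 0.046, 0.33 and 0.10 without middle replicate 1, middle replicate 2 and last replicate 1, beside -0.028, 0.08 and 0.02.

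**Figure D1:**
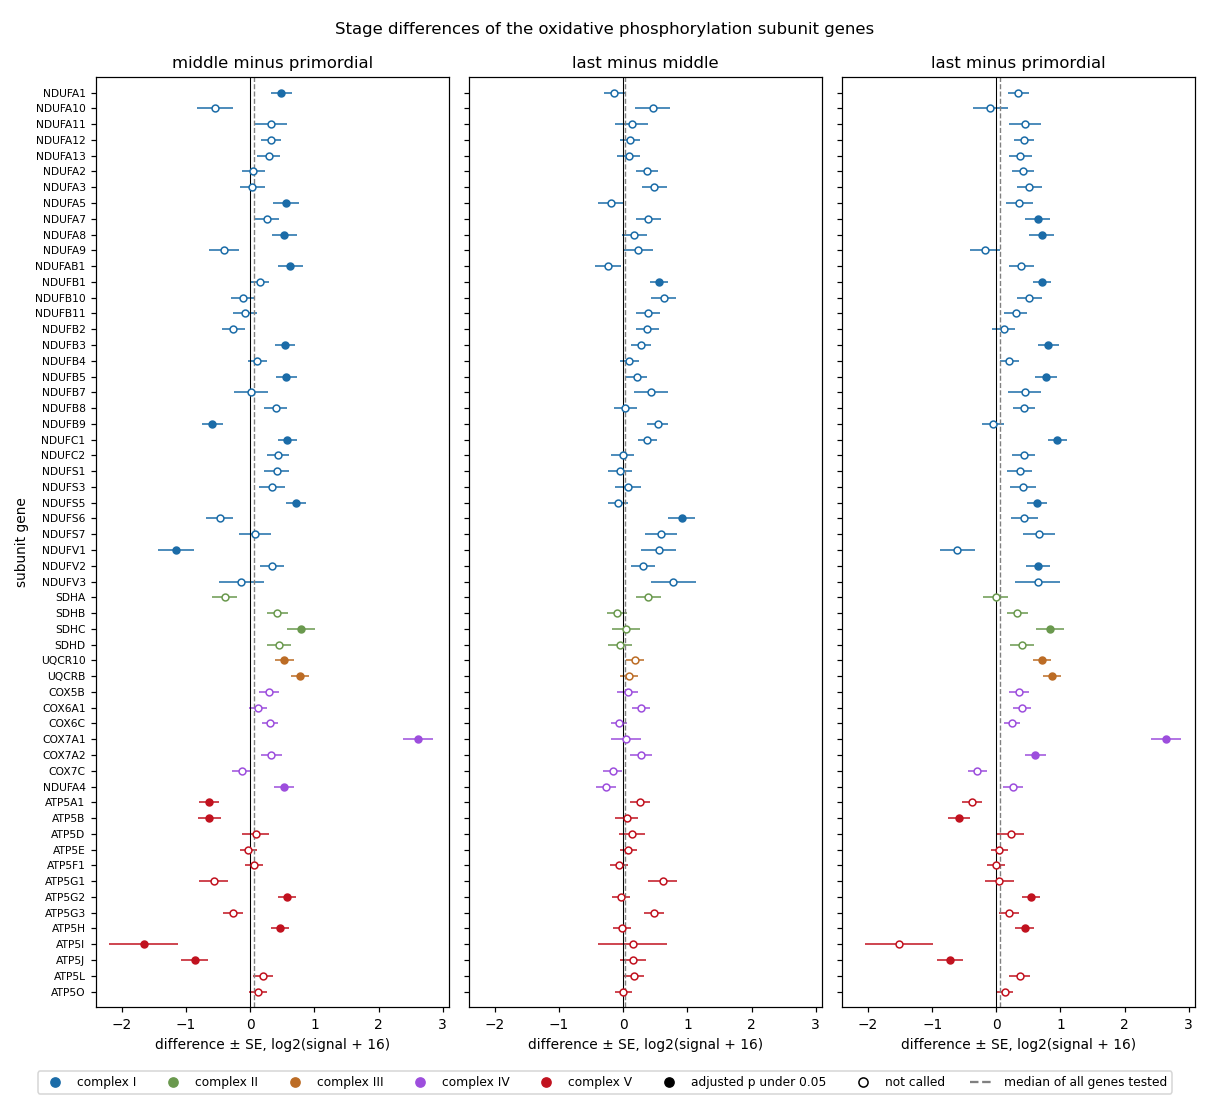
Difference ± SE of each of the 58 subunit genes tested, on the log2(signal + 16) scale, with filled points called by limma at an adjusted p under 0.05 and a dashed line at the median of all genes tested. COX7A1 lies far to the right in both comparisons with the arrays labelled primordial (2.61 and 2.65), while ATP5A1, ATP5B, ATP5I and ATP5J lie to the left in middle minus primordial; with median centring, which shifts all genes of an array alike, the middle minus primordial calls become 1 higher and 15 lower, beside 11.8% higher and 36.7% lower of all genes.

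Read relative to all genes tested, complexes III and V lay at opposite ends. In middle minus primordial the median of complex III exceeded that of all genes by 0.59, complex II by 0.37, complex IV by 0.25 and complex I by 0.21, and that of complex V lay at -0.09, or at 0.18 with quantile normalization. In last minus primordial the values were 0.72 for complex III, 0.36 for complex I, 0.30 for complex II, 0.29 for complex IV and -0.02 for complex V, or 0.11 for complex V with quantile normalization. Complex III was highest and complex V lowest of the 5 in both comparisons, under the deposited scaling and all 17 alternatives. Several of these alternatives could not change that order. Median centring, no variance trend, the fit of the 4 arrays compared and the replicate block return the same medians relative to all genes. So does leaving out an array of the stage not compared, and counting NDUFA4 in complex I leaves complexes III and V as they were. Complex III is measured by only 2 genes and complex II by 4. In last minus middle complex I was highest, at 0.27 above all genes, and complexes II, III, IV and V lay at -0.02, 0.11, 0.01 and 0.11, of which the last 3 turned to -0.22, -0.31 and -0.17 with quantile normalization. All of these are medians with no test between complexes, and both comparisons with the primordial label share the same 2 arrays.

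The replicates set the scale for these shifts. The median of complex I, as each gene's deviation from its own mean less that of all genes, came to -0.19 and -0.18 under the primordial label, -0.12 and 0.09 in middle stage follicles and 0.31 and 0.11 in last stage ones. The middle replicates lay about as far apart as the last ones, and both fell between the other stages. For complex V the values were 0.06 and 0.05, -0.16 and -0.01, and 0.08 and 0.01, in the same order of stages. Complex V overlapped between the primordial label and the last stage and was lowest on middle replicate 1. Of the 58 subunits 43 had both last arrays above both arrays labelled primordial and 7 had both below, or 74.1% and 12.1%, beside 37.2% and 31.9% of all genes tested. Between middle and primordial 31 lay wholly above and 13 wholly below, or 53.4% and 22.4%, beside 40.7% and 35.4% of all genes, and in last minus middle 24 and 2 did, or 41.4% and 3.45%, beside 29.8% and 27.9%. These counts are of the deposited signals and depend on their scaling. They were not repeated with median centring or quantile normalization, which moved the split of the calls.

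**Figure D2:**
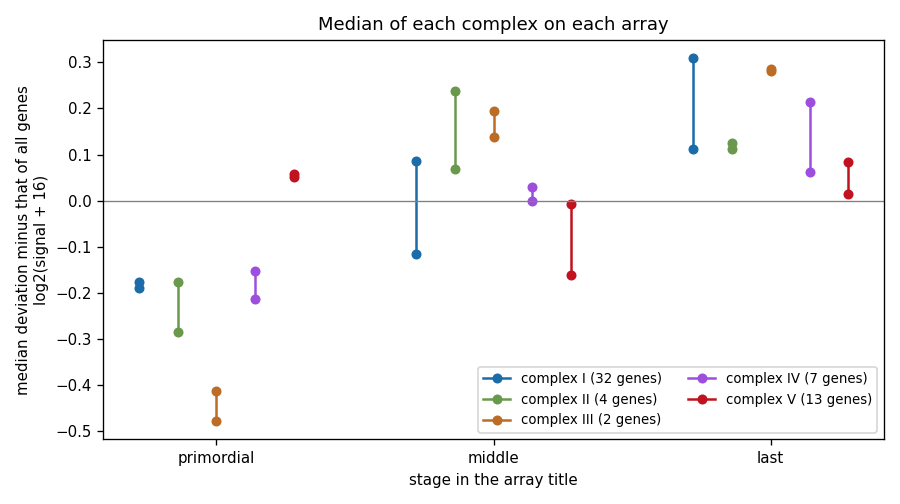
Median over the genes of each complex, as each gene's deviation from its mean over 6 arrays minus the same median of all genes, on the log2(signal + 16) scale; each point is 1 array and a line joins the replicates of a stage. Complex III lies at -0.41 and -0.48 under the primordial label and at 0.19 and 0.14 in the middle stage, while complex V stays within -0.16 to 0.08; with quantile normalization complex V of middle minus primordial lies at 0.18 in place of -0.09.

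Complex I, which takes electrons from NADH, has a matrix arm with the redox centres and a membrane arm that pumps protons. Its genes on the array comprise 5 core subunits of the matrix arm and 27 supernumerary subunits. Of the 32 genes 8 were higher and 2 lower in middle minus primordial, or 25% and 6.25%, beside 22.9% and 22.5% of all genes. With median centring these counts were 0 and 6 (all genes 11.8% and 36.7%), and with quantile normalization 14 and 2 (20.3% and 24.3%). In last minus middle 2 were higher and 0 lower, or 6.25% and 0%, beside 8.8% and 7.23%. In last minus primordial 8 were higher and 0 lower, or 25% and 0%, beside 17.2% and 15.8%. Among the supernumerary genes 8 were higher and 1 lower in middle minus primordial (29.6% and 3.7%), and 7 higher and 0 lower in last minus primordial (25.9% and 0%). Of the core genes 0 were higher and 1 lower in the first of these (0% and 20%) and 1 was higher and 0 lower in the second (20% and 0%).

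Of complex I, 3 small membrane-arm genes, NDUFC1, NDUFB3 and NDUFB1, kept their last minus primordial calls in every alternative fit. NDUFC1, a short single-helix subunit, had signals of 3391 and 3274 under the primordial label, 4995 and 4953 in middle stage follicles and 6793 and 6156 in last stage ones. Its arrays did not overlap between any pair of stages, and it was higher by 0.95 ± 0.15 (limma adjusted p = 0.00166) in last minus primordial and by 0.58 ± 0.15 (limma adjusted p = 0.0109) in middle minus primordial. NDUFB3, of the distal membrane arm, had 2694 and 2599 under the primordial label, 3710.4 and 3997 in middle stage follicles and 5012 and 4337 in last stage ones. The stages again did not overlap, with a difference of 0.81 ± 0.16 (limma adjusted p = 0.00504) in last minus primordial and 0.54 ± 0.16 (limma adjusted p = 0.0214) in middle minus primordial. A second NDUFB3 probe set differed by 0.77 ± 0.19 (limma adjusted p = 0.0123) and 0.59 ± 0.19 (limma adjusted p = 0.0263) in the same comparisons. In middle minus primordial the call of NDUFC1 ended without primordial replicate 2 or middle replicate 1, and that of NDUFB3 without any 1 of the 4 arrays compared and without the variance trend.

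NDUFB1 and NDUFS6 were the 2 subunits called in last minus middle, both higher, while 44 of the 58 had positive values there. NDUFB1, another membrane-arm subunit, had 5267 and 5616 under the primordial label, 5903 and 6153 in middle stage follicles and 9314 and 8526 in last stage ones. Only the last arrays stood apart by much, as the difference was 0.56 ± 0.14 (limma adjusted p = 0.0251) in last minus middle, and it was 0.71 ± 0.14 (limma adjusted p = 0.00512) for last minus primordial, beside 0.15 ± 0.14 (limma adjusted p = 0.414) in middle minus primordial. NDUFS6, a zinc-binding subunit of the matrix arm, had 608 and 584 under the primordial label, 376 and 476 in middle stage follicles and 822 and 802 in last stage ones. Its lowest stage was the middle one, and it was higher by 0.91 ± 0.21 (limma adjusted p = 0.0176) in last minus middle. The NDUFS6 call was lost without middle replicate 1 and without last replicate 1, and the NDUFB1 call in last minus middle without middle replicate 1, middle replicate 2 or last replicate 1, with quantile normalization and without the variance trend, where its adjusted p reached 0.177.

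NDUFV1, the core subunit that binds NADH and the flavin, went the other way. It had 752 and 1077 under the primordial label, 329 and 473 in middle stage follicles and 685 and 499 in last stage ones. Both middle arrays lay below both arrays labelled primordial, with a difference of -1.16 ± 0.28 (limma adjusted p = 0.00758), and the call ended without either primordial replicate 2 or middle replicate 1 (adjusted p up to 0.0727). Its partner NDUFV2, an iron-sulfur core subunit, had 2522 and 2879 under the primordial label, 3049 and 3829 in middle stage follicles and 4579.9 and 3899 in last stage ones, and was higher by 0.65 ± 0.18 (limma adjusted p = 0.0249) in last minus primordial. In middle minus primordial it was not called, at 0.34 ± 0.18 (limma adjusted p = 0.155), but a dimmer NDUFV2 probe set was higher there by 0.95 ± 0.22 (limma adjusted p = 0.00678). NDUFB9, a membrane-arm subunit, shared the low middle signals of NDUFV1, with 5488 and 5424 under the primordial label, 3176 and 4119 in middle stage follicles and 5347 and 5161 in last stage ones and a difference of -0.59 ± 0.17 (limma adjusted p = 0.0175) in middle minus primordial. For NDUFB9 the last arrays were close to those labelled primordial, at -0.05 ± 0.17 (limma adjusted p = 0.83). The NDUFB9 call ended without primordial replicate 1, primordial replicate 2 or middle replicate 1, with quantile normalization and without the variance trend, and that of NDUFV2 without primordial replicate 1, primordial replicate 2 or last replicate 1, with median centring and without the trend.

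The other called genes of complex I were supernumerary. NDUFS5, a small subunit of the intermembrane space side, had 4262 and 4642 under the primordial label, 6732 and 7885 in middle stage follicles and 7333 and 6492 in last stage ones, and was higher by 0.71 ± 0.16 (limma adjusted p = 0.00496) in middle minus primordial and 0.63 ± 0.16 (limma adjusted p = 0.0136) in last minus primordial. NDUFB5, with 2455 and 2298 (primordial), 3209.5 and 3863 (middle) and 4236 and 3902 (last), was higher by 0.56 ± 0.17 (limma adjusted p = 0.0218) and 0.77 ± 0.17 (limma adjusted p = 0.00813) in those comparisons. NDUFA8, which faces the intermembrane space, had 1946 and 2257 (primordial), 2721 and 3389 (middle) and 3809 and 3084 (last), and was higher by 0.53 ± 0.19 (limma adjusted p = 0.047) and 0.71 ± 0.19 (limma adjusted p = 0.0215). For these 3 genes every later array lay above both arrays labelled primordial. NDUFAB1, which also serves as the acyl carrier protein of mitochondrial fatty acid synthesis, was higher in middle minus primordial by 0.63 ± 0.20 (limma adjusted p = 0.0282). Its middle signals were 5287 and 5479, against 3268 and 3708 under the primordial label, and the last arrays lay apart at 5554 and 3766. NDUFA1 (0.48 ± 0.17, adjusted p = 0.0375) and NDUFA5 (0.55 ± 0.20, adjusted p = 0.04996) passed by limma in middle minus primordial alone, and NDUFA7 in last minus primordial alone, at 0.65 ± 0.19 (limma adjusted p = 0.0306). With median centring, 0 of the 8 increases of complex I in middle minus primordial passed. Each of these calls also ended without 1 or more single arrays, except that of NDUFS5 in middle minus primordial, and the NDUFB5 call in last minus primordial ended only without primordial replicate 2.

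Genes of complex I that did not pass covered a wide range. NDUFV3, a small matrix-arm subunit with signals of 99.4 and 86.9 (primordial), 60.6 and 112 (middle) and 171 and 139 (last), differed by 0.78 ± 0.36 (limma adjusted p = 0.167) in last minus middle. NDUFA9, a matrix-side accessory subunit, had 1266 and 1528 (primordial), 963 and 1141 (middle) and 1484 and 1021 (last) and gave -0.17 ± 0.23 (limma adjusted p = 0.597) in last minus primordial, beside NDUFV1 the lowest value of the complex there. All 10 NDUFB genes, which make up most of the distal membrane arm, had positive values in last minus middle, with a median of 0.38, and 1 of them was called. NDUFB10, named here after its values were seen, came nearest of the others, with 2354 and 2185 (primordial), 1811 and 2436 (middle) and 3276 and 3233 (last) and 0.63 ± 0.19 (limma adjusted p = 0.0503). The core genes NDUFS1, NDUFS3 and NDUFS7 differed by 0.36 ± 0.19, 0.42 ± 0.20 and 0.66 ± 0.25 in last minus primordial (limma adjusted p = 0.176, 0.139 and 0.0661). For NDUFS3, singled out after its values were seen, the probe sets disagreed, since a dimmer one was lower in middle minus primordial, at -1.18 ± 0.22 (limma adjusted p = 0.00223) while the one used stood at 0.35 ± 0.20 (limma adjusted p = 0.187). Another dimmer NDUFS3 probe set was higher in last minus primordial, by 0.84 ± 0.26 (limma adjusted p = 0.0366).

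Complex II is also succinate dehydrogenase of the TCA cycle, and all 4 of its subunits were measured. SDHC, which anchors the complex in the membrane, had 810.5 and 649.5 under the primordial label, 1144 and 1399 in middle stage follicles and 1175 and 1452 in last stage ones. It was higher by 0.79 ± 0.22 (limma adjusted p = 0.0153) in middle minus primordial and by 0.83 ± 0.22 (limma adjusted p = 0.0177) in last minus primordial, with no overlap of arrays in either. These calls ended without primordial replicate 2 or middle replicate 2 and without primordial replicate 2 or last replicate 2, and with median centring. SDHD, the other anchor, had 2539.8 and 2409 under the primordial label, 2888 and 3931 in middle stage follicles and 3134 and 3398 in last stage ones, and SDHB, the iron-sulfur subunit, 4444 and 4242 under the primordial label, 5677 and 5996 in middle stage follicles and 6073 and 4917 in last stage ones. Their middle and last arrays all lay above those labelled primordial, but at differences of 0.44 ± 0.19 and 0.42 ± 0.16 in middle minus primordial they did not pass (limma adjusted p = 0.0801 and 0.0529). A dimmer SDHB probe set did pass there, at 1.24 ± 0.26 (limma adjusted p = 0.00367). It was also lower in last minus middle, at -0.86 ± 0.26 (limma adjusted p = 0.047). The SDHB probe set used stood at -0.09 ± 0.16 (limma adjusted p = 0.728) in last minus middle. SDHA, the flavoprotein that oxidizes succinate, was not called, with 1959 and 2153 under the primordial label, 1345 and 1799.5 in middle stage follicles and 2118 and 1972 in last stage ones and -0.40 ± 0.20 (limma adjusted p = 0.125) in middle minus primordial.

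Both genes of complex III were higher in the 2 later stages. UQCRB, a subunit near the ubiquinone site, had 4909 and 4779 under the primordial label, 8144 and 8495 in middle stage follicles and 9173 and 8530.1 in last stage ones. All later arrays lay far above those labelled primordial, 1.72-fold in middle minus primordial (0.78 ± 0.14, limma adjusted p = 0.0016) and 1.82-fold in last minus primordial (0.87 ± 0.14, limma adjusted p = 0.00179). UQCR10, a small subunit of the complex, had 3591 and 3547 under the primordial label, 5094 and 5231 in middle stage follicles and 5747 and 5949.9 in last stage ones, and was higher by 0.53 ± 0.14 (limma adjusted p = 0.0143) and 0.71 ± 0.14 (limma adjusted p = 0.00583). Neither passed in last minus middle, at 0.09 ± 0.14 and 0.18 ± 0.14. With every array centred on its own median log2 value UQCRB stood at 0.365 in middle minus primordial (limma adjusted p = 0.0645), and the UQCR10 call there ended too, as it did without any 1 of the 4 arrays compared and without the variance trend. Both last minus primordial calls held in every alternative fit.

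In complex IV, cytochrome c oxidase, the outstanding gene was COX7A1. It encodes the heart and muscle isoform of subunit VIIa, known as such from human and cattle, and COX7A2 encodes the liver isoform. COX7A1 had 238 and 276 under the primordial label, 1339 and 2031 in middle stage follicles and 1692 and 1699 in last stage ones. Every later array was several times above every array labelled primordial, and the fold was 6.11 in middle minus primordial (2.61 ± 0.24, limma adjusted p = 4.89e-05) and 6.28 in last minus primordial (2.65 ± 0.24, limma adjusted p = 0.000107). Both calls held in all 15 alternative fits, with adjusted p up to 0.00157. Between the later stages it differed by 0.04 ± 0.24 (limma adjusted p = 0.927). COX7A2 had 5725 and 6549 under the primordial label, 7311 and 8099.6 in middle stage follicles and 10613 and 8215 in last stage ones, and was higher by 0.61 ± 0.17 (limma adjusted p = 0.0216) in last minus primordial. That call ended without primordial replicate 1, primordial replicate 2 or last replicate 1, with median centring and without the variance trend.

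The summed signals of muscle and stromal markers were also higher in the later stages than under the primordial label. The 6 smooth muscle markers on the array summed to 3934 to 4660 under the primordial label, 7151 to 8198 in the middle arrays and 28115 to 28670 in the last arrays. Of these 3 were higher and 1 lower in middle minus primordial, 5 higher in last minus middle, where COX7A1 was not called, and 6 higher in last minus primordial. The 7 stromal markers summed to 909.8 to 1075, 12769 to 20004 and 15297 to 18551, with 4 higher in middle minus primordial and 6 in last minus primordial, and 3 between the later stages. Of all genes tested 22.9% were higher and 22.5% lower in middle minus primordial. These shares were 8.8% and 7.23% in last minus middle and 17.2% and 15.8% in last minus primordial. No marker of either list was at or under 16 on both arrays of a stage. Their part in the COX7A1 difference was not tested.

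The other subunits of complex IV had smaller differences. NDUFA4 had 7539 and 7580.2 under the primordial label, 9619 and 12446 in middle stage follicles and 9451 and 8635 in last stage ones, and was higher by 0.53 ± 0.16 (limma adjusted p = 0.0202) in middle minus primordial. This call ended without primordial replicate 1, primordial replicate 2 or middle replicate 2, with median centring and without the variance trend. COX5B, a zinc-binding matrix subunit, COX6A1, the liver isoform of subunit VIa, and COX6C differed by 0.36 ± 0.16, 0.40 ± 0.14 and 0.24 ± 0.12 in last minus primordial (limma adjusted p = 0.114, 0.0556 and 0.162). COX7C, with 14398 and 17709 under the primordial label, 13807 and 15409.8 in middle stage follicles and 12009.5 and 14098 in last stage ones, gave -0.29 ± 0.15 (limma adjusted p = 0.161) there, the only negative value of the complex in that comparison. CYCS, the electron carrier into complex IV, did not pass in any comparison, with 2592 and 2608 under the primordial label, 2327 and 1338 in middle stage follicles and 3579.6 and 1905 in last stage ones. Its replicates in the middle and last stages spread too far for an order.

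**Figure D3:**
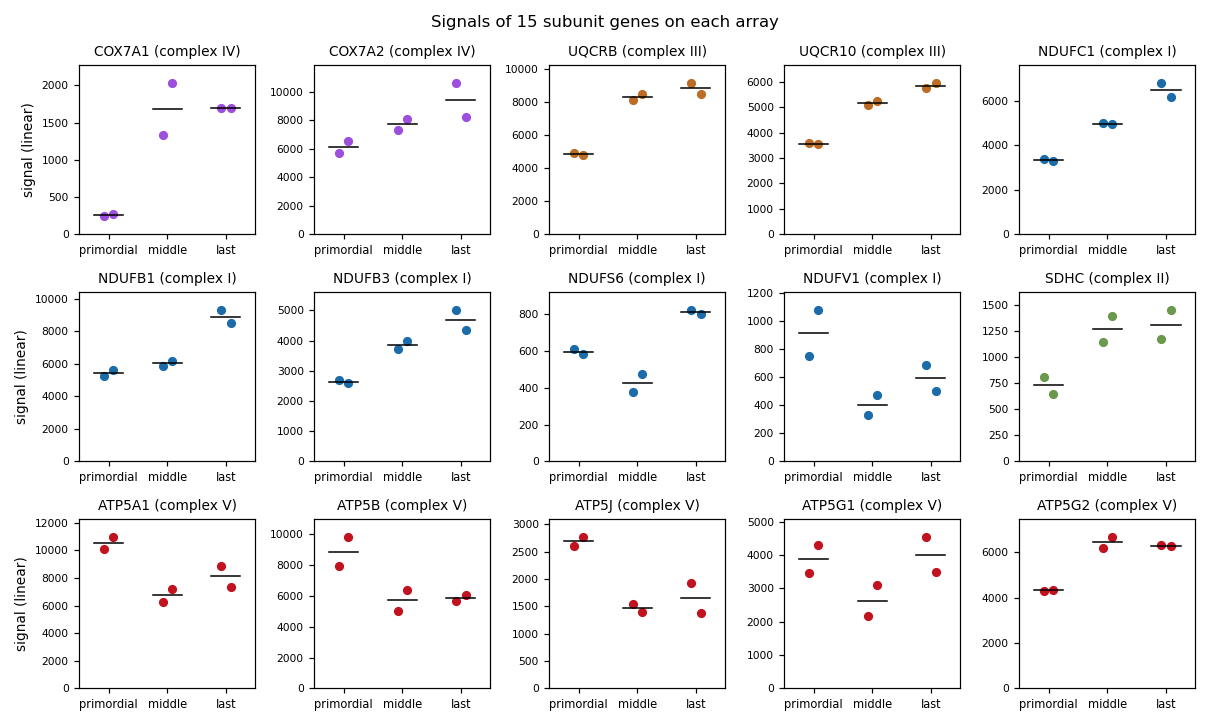
Linear signal of 15 subunit genes on each array by stage, with points for single arrays, a bar for the stage mean and every axis starting at 0. COX7A1, UQCRB, NDUFC1 and NDUFB3 have all later arrays above those labelled primordial, NDUFV1, ATP5A1, ATP5B and ATP5J have all middle arrays below them, and NDUFB1 and NDUFS6 are set apart by the last arrays.

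Complex V, ATP synthase, was called in both directions in both comparisons with the primordial label. In middle minus primordial 2 of 13 were higher and 4 lower, or 15.4% and 30.8%, beside 22.9% and 22.5% of all genes. With median centring these counts were 0 and 7 (all genes 11.8% and 36.7%), and with quantile normalization 6 and 2 (20.3% and 24.3%). In last minus primordial 2 were higher and 2 lower, or 15.4% each way, near the 17.2% and 15.8% of all genes. In last minus middle 0 were called, beside 8.8% higher and 7.23% lower of all genes. The catalytic head is made of alpha and beta subunits. ATP5A1, the alpha subunit, had 10125 and 10959 under the primordial label, 6281 and 7225 in middle stage follicles and 8876 and 7349.7 in last stage ones, and ATP5B, the beta subunit that carries the catalytic sites, had 7904 and 9774 under the primordial label, 5009 and 6372 in middle stage follicles and 5667 and 6043 in last stage ones. Both were lower on every middle array than on either array labelled primordial, at -0.64 ± 0.15 (limma adjusted p = 0.00765) and -0.64 ± 0.17 (limma adjusted p = 0.0145). ATP5B was lower in last minus primordial as well, at -0.59 ± 0.17 (limma adjusted p = 0.0293), and ATP5A1 stood at -0.38 ± 0.15 (limma adjusted p = 0.0844). With quantile normalization the middle minus primordial differences shrank to -0.29 for ATP5A1 and -0.30 for ATP5B and did not pass (limma adjusted p = 0.119 and 0.165). The middle minus primordial calls of both also ended without primordial replicate 2 or middle replicate 1, and the last minus primordial call of ATP5B without primordial replicate 2, last replicate 1 or last replicate 2. Without the variance trend both ATP5B calls ended, and without the filter on dim probe sets that in last minus primordial. The central stalk genes ATP5D and ATP5E, delta and epsilon, differed by 0.08 ± 0.20 and -0.03 ± 0.13 in middle minus primordial (limma adjusted p = 0.762 and 0.858).

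The 3 genes of the c ring had separate patterns. In human and cattle they encode the same mature subunit c behind different import peptides. ATP5G2 had 4305 and 4324 under the primordial label, 6198 and 6652 in middle stage follicles and 6313 and 6250.0 in last stage ones, and was higher by 0.57 ± 0.14 (limma adjusted p = 0.00913) in middle minus primordial and 0.54 ± 0.14 (limma adjusted p = 0.0178) in last minus primordial. ATP5G1, with 3447 and 4299 under the primordial label, 2172 and 3093 in middle stage follicles and 4534 and 3479.7 in last stage ones, had its lowest signals on the middle arrays, at -0.57 ± 0.22 (limma adjusted p = 0.0619) in middle minus primordial and 0.61 ± 0.22 (limma adjusted p = 0.0908) in last minus middle. ATP5G3 likewise had a middle low, with 10244 and 10724 under the primordial label, 7563 and 9938 in middle stage follicles and 12419.8 and 11755 in last stage ones and 0.48 ± 0.16 (limma adjusted p = 0.0645) in last minus middle. The ATP5G2 calls ended without primordial replicate 1 or middle replicate 2 in middle minus primordial and without primordial replicate 1, primordial replicate 2 or last replicate 1 in last minus primordial. Both ended with median centring, and that in last minus primordial also without the variance trend. Neither ATP5G1 nor ATP5G3 passed in any of the 3 comparisons, and the difference between the 3 genes was not tested.

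The peripheral stalk, which holds the head still against rotation, also split. ATP5J, coupling factor 6, had 2613 and 2766 under the primordial label, 1541 and 1393 in middle stage follicles and 1921 and 1375 in last stage ones, and was lower, at -0.87 ± 0.20 (limma adjusted p = 0.00724) in middle minus primordial and -0.72 ± 0.20 (limma adjusted p = 0.0248) in last minus primordial. The first of these calls held in all 15 alternative fits, with adjusted p up to 0.0496, and the second ended without primordial replicate 1, primordial replicate 2 or last replicate 2. ATP5H, subunit d of the same stalk, had 4959 and 5623 under the primordial label, 7089 and 7491 in middle stage follicles and 7165 and 7192 in last stage ones, and was higher by 0.46 ± 0.14 (limma adjusted p = 0.0248) and 0.44 ± 0.14 (limma adjusted p = 0.0405) in those comparisons. Every later array of ATP5H lay above those labelled primordial, but its calls ended without any 1 of the arrays compared. Without the variance trend the ATP5H calls ended too, as did the last minus primordial call of ATP5J. ATP5F1, subunit b, and ATP5O, which joins the stalk to the head, differed by 0.06 ± 0.14 and 0.13 ± 0.14 in middle minus primordial (limma adjusted p = 0.75 and 0.478).

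Among the small membrane subunits ATP5I, subunit e, had 718 and 1848 under the primordial label, 201 and 614 in middle stage follicles and 308 and 502 in last stage ones. It was lower, at -1.66 ± 0.54 (limma adjusted p = 0.0295) in middle minus primordial, but replicates of the primordial label and of the middle stage each differed more than 2-fold, and the call ended without either primordial replicate 2 or middle replicate 1 (adjusted p up to 0.252), as well as without the filter on dim probe sets and without the variance trend. ATP5L, subunit g, differed by 0.36 ± 0.16 (limma adjusted p = 0.108) in last minus primordial, and a dimmer ATP5L probe set by 0.99 ± 0.26 (limma adjusted p = 0.0168). ATP5S, whose product is not a subunit of the enzyme, was higher by 0.86 ± 0.26 (limma adjusted p = 0.0308) in last minus primordial, and its dimmer probe set differed by 0.50 ± 0.27 there (limma adjusted p = 0.178). The ATP5S call was lost in 9 of 15 alternatives, which include both scalings, no filter, the fit of the 4 arrays compared and the loss of any 1 array but last replicate 2.

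**Figure D4:**
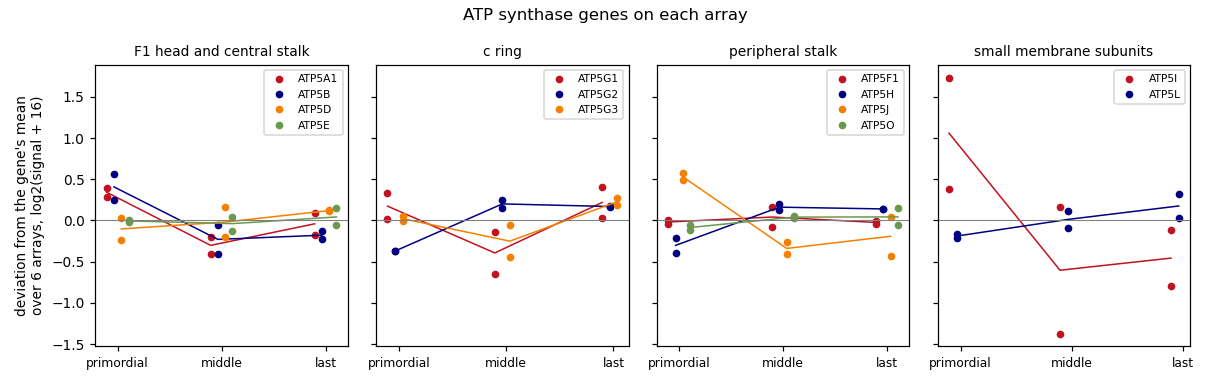
Deviation of each ATP synthase gene from its own mean over the 6 arrays, on the log2(signal + 16) scale, with points for single arrays and lines through the stage means. ATP5I, ATP5J, ATP5B and ATP5A1 start highest under the primordial label while ATP5G2 and ATP5H start lowest; with median centring the increases of ATP5G2 and ATP5H in middle minus primordial did not pass.

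Assembly factors, which build the complexes without staying in them, were higher where they were called with the deposited scaling, but with median centring 3 were higher and 3 lower in middle minus primordial. NDUFAF1 had 111 and 153 under the primordial label, 334 and 374 in middle stage follicles and 229 and 174 in last stage ones, with the middle arrays above all others, and was higher by 1.34 ± 0.27 (limma adjusted p = 0.00342) in middle minus primordial. NDUFAF2 had 382 and 364 under the primordial label, 679 and 654 in middle stage follicles and 769 and 787 in last stage ones, and was higher by 0.81 ± 0.20 (limma adjusted p = 0.00823) and, in last minus primordial, 1.03 ± 0.20 (limma adjusted p = 0.00433). NDUFAF3 had 712 and 781 under the primordial label, 715 and 721 in middle stage follicles and 1124 and 1222 in last stage ones, and was higher by 0.69 ± 0.19 (limma adjusted p = 0.0359) in last minus middle, and by 0.64 ± 0.19 (limma adjusted p = 0.03) for last minus primordial, calls that each ended without any 1 of the arrays compared, and in last minus primordial with either scaling. The last minus middle call of NDUFAF3 also ended without the variance trend, with the fit of the 4 arrays compared and with the replicate block. In middle minus primordial the NDUFAF2 call ended with median centring (limma adjusted p = 0.149) and without primordial replicate 2. The NDUFAF1 call held in the 14 alternative fits in which its probe set was tested, and the last minus primordial call of NDUFAF2 in all 15. A dimmer NDUFAF1 probe set was not called in middle minus primordial, at 0.84 ± 0.34 (limma adjusted p = 0.0665). Over the whole list of assembly factors, 14 of which were tested with these 3 included, 6 were higher and 0 lower in middle minus primordial, with a median of 0.18, and with quantile normalization 5 and 1. Beside this and the lists that follow, 22.9% of all genes were higher and 22.5% lower in that comparison, or 11.8% and 36.7% with median centring. For last minus middle the counts were 1 and 0 (median 0.16), and for last minus primordial 5 and 0 (median 0.30). Beside these and the lists that follow, 8.8% higher and 7.23% lower, and 17.2% and 15.8%, of all genes passed there. TMEM70 and ATPAF1, needed to assemble ATP synthase, were higher in middle minus primordial by 1.73 ± 0.25 (limma adjusted p = 0.000541) and 1.56 ± 0.25 (limma adjusted p = 0.00103). TMEM70 had a mean signal of 301 under the primordial label, 1023 in the middle stage and 792 in the last.

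The TCA cycle, which supplies NADH and succinate to complexes I and II, changed in both directions. Of 14 TCA cycle genes 4 were higher and 6 lower in middle minus primordial (2 and 9 with median centring, 3 and 7 with quantile normalization), with a median of -0.45, and 2 higher and 1 lower in last minus middle, with a median of 0.36. Fumarase, FH, had mean signals of 2321, 1326 and 1888 in the 3 stages in order and was lower, at -0.80 ± 0.17 (limma adjusted p = 0.00451) in middle minus primordial. OGDH, of the 2-oxoglutarate dehydrogenase complex, was lower, at -1.18 ± 0.22 (limma adjusted p = 0.00225) there and higher by 0.80 ± 0.22 (limma adjusted p = 0.0379) in last minus middle. OGDHL, its paralog, went the opposite way, at 2.05 ± 0.31 (limma adjusted p = 0.00078) and -2.38 ± 0.31 (limma adjusted p = 0.00119), with mean signals of 82.9, 389 and 62.3. SUCLG2, a subunit of succinyl-CoA ligase, was higher by 1.07 ± 0.18 (limma adjusted p = 0.00145) in middle minus primordial. Among 8 genes of pyruvate entry 1 was higher and 1 lower in that comparison (1 and 4 with median centring), with a median of -0.04. MPC2, of the mitochondrial pyruvate carrier, was higher in last minus middle by 0.72 ± 0.17 (limma adjusted p = 0.0189), and PC, pyruvate carboxylase, differed at -1.26 ± 0.29 (limma adjusted p = 0.0185) there.

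A list of the carriers that exchange ATP, ADP and phosphate, the outer membrane channels, UCP2 and ATPIF1 gave 1 higher and 5 lower of 9 tested in middle minus primordial, with a median of -0.60, but 0 and 7 with median centring and 2 and 2 with quantile normalization. Without the variance trend 0 were higher and 1 lower, beside 21.2% and 19.9% of all genes. Fewer of the list were also called without primordial replicate 2, as among all genes. SLC25A3, the phosphate carrier, had mean signals of 15899, 10391 and 13523 and was lower, at -0.61 ± 0.15 (limma adjusted p = 0.00841). The adenine nucleotide carrier SLC25A6 was lower, at -0.55 ± 0.17 (limma adjusted p = 0.0231), the outer membrane channel VDAC1 at -0.63 ± 0.18 (limma adjusted p = 0.0184) and UCP2, an inner membrane carrier, at -1.17 ± 0.28 (limma adjusted p = 0.00756). VDAC3, another such channel, was the 1 that was higher, by 0.48 ± 0.17 (limma adjusted p = 0.0399). ATPIF1, the inhibitor of ATP synthase, was higher in last minus primordial by 0.84 ± 0.20 (limma adjusted p = 0.011), with mean signals of 2726, 3688 and 4928.

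Mitochondrial ribosomes translate the subunits encoded in mitochondrial DNA, and the import machinery brings in the others. Of 58 mitochondrial ribosomal protein genes 15 were higher and 6 lower in middle minus primordial and 14 higher and 2 lower in last minus primordial, with medians of 0.29 and 0.39. These shares, 25.9% and 10.3%, and 24.1% and 3.45%, stand beside 22.9% and 22.5%, and 17.2% and 15.8%, of all genes. With median centring these counts were 5 and 13 in middle minus primordial and 5 and 4 in last minus primordial (all genes 11.8% and 36.7%, and 10% and 22.5%), and with quantile normalization 11 and 8, and 11 and 2. Without primordial replicate 2 fewer of these genes were called in both comparisons, as among all genes. MRPS14 stood out, at 2.43 ± 0.18 (limma adjusted p = 1.72e-05) in middle minus primordial and -1.43 ± 0.18 (limma adjusted p = 0.000828) in last minus middle, with mean signals of 1104, 6025 and 2228. Of 23 import genes 5 were higher and 2 lower in middle minus primordial (2 and 5 with median centring) and 5 higher and 1 lower in last minus primordial (2 and 2 with median centring). TOMM7, of the outer membrane translocase, was among them, at 0.85 ± 0.13 (limma adjusted p = 0.00165) in last minus primordial, and TIMM21, of the inner membrane one, at 1.04 ± 0.20 (limma adjusted p = 0.00491).

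Regulators of mitochondrial content were few on the array, with 7 tested. PPARGC1A, the coactivator PGC-1 alpha, was lower in last minus middle, at -2.17 ± 0.40 (limma adjusted p = 0.00665), with mean signals of 117, 186 and 29.6, the last of them near the pseudocount. PPRC1, a related coactivator, was lower in both later stages than under the primordial label, at -2.00 ± 0.23 (limma adjusted p = 0.000183) and -1.90 ± 0.23 (limma adjusted p = 0.000527). TFB1M, which methylates mitochondrial ribosomal RNA, was higher in middle minus primordial by 1.19 ± 0.23 (limma adjusted p = 0.00266). Of 12 hypoxia genes tested 1 was higher and 5 lower in middle minus primordial (1 and 7 with median centring, 2 and 5 with quantile normalization). LDHA, which turns pyruvate to lactate, was lower, at -1.87 ± 0.24 (limma adjusted p = 0.000309) and SLC2A1, a glucose transporter, at -2.21 ± 0.23 (limma adjusted p = 8.97e-05). In last minus middle 3 were higher, among them HIF1A, a subunit of the hypoxia-inducible factor, at 0.62 ± 0.14 (limma adjusted p = 0.0171).

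**Figure D5:**
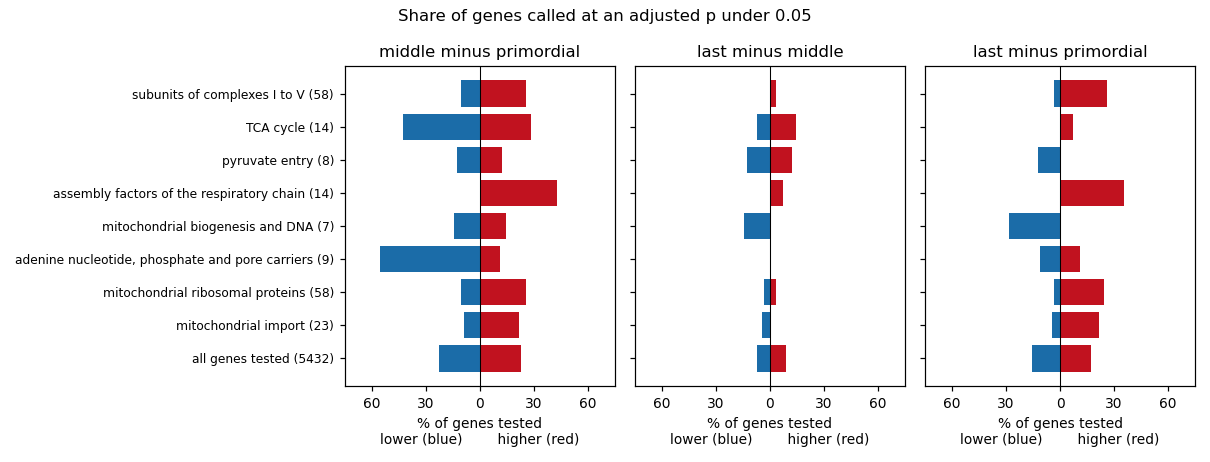
Share of tested genes called by limma at an adjusted p under 0.05, higher to the right and lower to the left, for the subunits, for 7 other mitochondrial lists and for all genes, with the number tested in brackets. In middle minus primordial the TCA cycle (6 of 14) and carrier (5 of 9) lists have the longest bars to the left and the assembly factors (6 of 14) the longest to the right; with median centring the calls of that comparison became 1 higher and 15 lower for the subunits and 3 and 3 for the assembly factors, and with quantile normalization 2 and 2 for the carriers.

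RNA quality controls did not move alike across the stages. For beta-actin the control probe set at the 3′ end was brighter than that at the 5′ end by 3.56 and 3.21 (log2) under the primordial label, 4.98 and 4.21 in the middle arrays and 3.90 and 3.57 in the last arrays. For GAPDH the gap was 3.43 and 2.69, 3.29 and 2.79, and 1.90 and 1.86, so only the last arrays lay apart. For EF1A, another control, it was 1.02 and 0.67, 1.34 and 0.87, and 0.83 and 0.70. There the arrays labelled primordial overlapped both later stages. Their part in the differences above was not tested.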

How the data were processed

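Pig follicle RNA was hybridised to 6 Affymetrix arrays, grouped by title into 3 stages of 2. GCOS, the array maker's software, is named in the submitters' processing notes, and its settings are not stated there. The authors deposited 1 linear intensity per array for 24123 probe sets, scaled so that each array had a mean of 500.1 once 2% of the values at either end were trimmed, as seen in the values. No further step could be seen, and no column of another series is in it.

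The 124 control probe sets and the 40% of the others with the lowest mean signal (under 91.3) were left out, and limma 3.58.1 in R 4.3.3 (lmFit, eBayes with trend, two-sided) was fitted to log2(signal + 16) of all 6 arrays, with 3 residual and 6.33 prior degrees of freedom and no replicate block. The comparisons middle minus primordial and last minus primordial share the arrays labelled primordial, and last minus middle shares the middle arrays with the first. A fold change on this scale understates that of dim genes. The procedure was tested on simulated data. Tables and figures were made in Python 3.11.15 (pandas 2.3.3, matplotlib 3.10.9).

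Genes are named from the platform annotation, which can be old and gives 1 symbol for 10069 probe sets, several for 198 and none for 13732. The members, gene lists and markers were chosen with earlier results of these data known. The rule named every gene called in a comparison, complex II, CYCS, isoform families and the 2 highest and lowest genes of the other complexes, and of other lists up to 4 called genes with the smallest p in each comparison. The few other genes named, such as the uncalled core genes of complex I and the uncalled genes of complexes IV and V, were added after their values were seen, as were dimmer probe sets. Alternatives were 2 scalings, pseudocounts of 1 and 64, no filter and a 60% filter, no variance trend, a fit of the 4 arrays compared, a replicate block, each array left out, the mean of a gene's probe sets, and NDUFA4 in complex I. No sequences are shown.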

Additional observations from a re-analysis of the deposited data

How the results depend on the processing

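Values are in the order middle minus primordial, last minus middle and last minus primordial. With quantile normalization the median relative to all genes was 0.51, -0.028 and 0.41 for all subunits, 0.42 and 0.085 for complex I in the first 2 of these, 0.73, -0.13 and 0.42 for complex II, 1.02, -0.22 and 0.82 for complex III, 0.73, -0.31 and 0.41 for complex IV, and 0.18, -0.17 and 0.11 for complex V. Without the filter on dim probe sets middle minus primordial gave 0.093 for all subunits, 0.55 for complex III and 0.19 for complex IV, and last minus middle 0.14 for complex III. In middle minus primordial the 60% filter gave 0.29 for complex IV and the mean of a gene's probe sets 0.55 for complex II. Subunits called numbered 35 and 4 with quantile normalization in the first 2 comparisons, 7 with centring in last minus middle, and 9, 1 and 8 without the variance trend. The shares of all genes with the 2 scalings are given above. Without the trend 6 subunits were higher and 3 lower, 1 and 0, and 8 and 0, of 58. Of all genes 21.2% were then higher and 19.9% lower, 6.61% and 5.85%, and 15.1% and 13.5%. With the trend these shares were 22.9% and 22.5%, 8.8% and 7.23%, and 17.2% and 15.8%, so the subunits lost more of their calls. The cause was not tested.

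Leaving out 1 array at a time gave medians of 0.076 to 0.21, 0.074 to 0.25 and 0.23 to 0.40 for all subunits. For complex I they were 0.061 to 0.32, 0.14 to 0.40 and 0.28 to 0.47. For complex II they were 0.30 to 0.45, -0.088 to 0.10 and 0.26 to 0.36. For complex III they were 0.56 to 0.64, 0.079 to 0.14 and 0.70 to 0.77. For complex IV they were 0.20 to 0.34, -0.064 to 0.11 and 0.22 to 0.37. For complex V they were -0.12 to -0.065, 0.018 to 0.14 and -0.019 to 0.14. Subunits called ranged from 5 to 23, 0 to 4 and 7 to 18, and all probe sets called from 4356 to 7189, 727 to 2172 and 2730 to 4297, beside 6821, 2481 and 4786 with all arrays. A stage left with 1 array was assumed to vary like the others. The lowest subunit counts came without primordial replicate 2 (5) in middle minus primordial, without middle replicate 1 or last replicate 1 (0) in last minus middle, and without primordial replicate 2 (7) in last minus primordial. All probe sets called were fewest without middle replicate 1 in middle minus primordial (4356) and last minus middle (727), and without primordial replicate 2 in last minus primordial (2730). Without the primordial replicate 1 array last minus primordial gave 2900, and without middle replicate 2 last minus middle gave 1440. Deviations of same-numbered replicates from their stage means correlated at 0.0593, -0.0476 and 0.0318 across probe sets. With 2 arrays a stage this cannot tell whether same-numbered arrays shared an animal, a day or a batch. With the replicate block 19, 2 and 17 subunits were called, and 6601, 2279 and 4532 probe sets, and 2, 0 and 1 subunit calls were lost. The remaining alternatives moved no median by more than the spread between replicates and no count by over 1.5 times, with 0 called subunits reversed in sign. Signal over background could not be judged, as no detection calls were used.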
